A study of Mus musculus with 31 samples.

Results

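The 10 plasma membrane amino acid transporter genes described here (Slc7a11, Slc3a2, Slc7a5, Slc7a6, Slc7a1, Slc1a4, Slc1a5, Slc38a1, Slc38a2 and Slc6a9) were chosen by name, as carriers linked to the transcription factor ATF4, with earlier results of these data known. All 10 had a row among the 20704 genes of the ribosome-protected fragment (RPF) table and among the 24593 genes of the total RNA table. The libraries came from a mouse skin squamous cell carcinoma (SCC) line with oncogenic Hras and an eGFP reporter, in which the endogenous Eif2s1 alleles were ablated with CRISPR/Cas9 and replaced by a lentiviral, myc-tagged Eif2s1 cDNA under the PGK promoter. All groups share the HRasG12V allele and a conditional Tgfbr2 allele, which the labels write as TgfbrIIfl/fl and the study's list of cell lines as deleted (TgfbrII D/D). S51 cells carry wild-type eIF2α and can mount the integrated stress response (ISR), whereas S51A cells carry an eIF2α that cannot be phosphorylated and are ISR-null. Cells of each genotype received vehicle (DMSO) or 100 nM bortezomib, a proteasome inhibitor, for 4.5 h according to the sample labels. There were 15 RPF libraries (3 from S51 vehicle, 4 from each of S51 bortezomib, S51A vehicle and S51A bortezomib) and 16 total RNA libraries (4 per group), and RPF and total RNA of the same number came from the same lysate. Each genotype was grown from single sorted cells, and the clone behind each library was not given in the sources used here, so that a difference between S51 and S51A cannot be told apart from a difference between clones. Replicates may be technical, and p-values then measure only the spread between these samples.

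Phosphorylation of eIF2α by stress kinases lowers translation initiation on most mRNAs, while the mRNA of Atf4 is translated better because of upstream open reading frames in its leader. ATF4, often paired with a C/EBP protein, binds composite elements at genes of amino acid synthesis and amino acid uptake, and thereby links the ISR to the supply of amino acids. Among the carriers described here, the cystine/glutamate exchanger and the exchangers of large neutral amino acids sit in the membrane only together with a glycoprotein heavy chain, whereas the others work without it.

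Checks of genotype, treatment and cell type preceded the comparisons. Levels are given as CPM (reads of a gene per 1000000 reads on genes), with library sizes scaled by the trimmed mean of M-values (TMM). RPF libraries held between 1038826 and 4902237 reads on genes and total RNA libraries between 18758668 and 22994713. Atf4 footprints averaged 189 CPM in S51 vehicle and 520 in S51 bortezomib, against 126 in S51A vehicle and 132 in S51A bortezomib, and Hspa1b, a heat shock protein gene, stood at 30.4, 936, 36.3 and 816 CPM in the same order. Eif2s1 footprints, for which the transgene is the intended source, do not tell wild-type from mutant eIF2α. They ranged from 81.2 to 171 CPM in S51 vehicle and from 148 to 196 CPM in S51 bortezomib. In S51A cells they ranged from 213 to 260 CPM with vehicle and from 190 to 235 CPM with bortezomib. Mean Eif2s1 total RNA was 309.6, 286.6, 294.7 and 290.5 CPM in the same order. The lowest footprint value was that of S51 vehicle replicate 2. Without this library only RPF and TE values of Slc3a2, Slc7a5 and Slc1a5 moved by over 0.1 (log2), and these are given below. Markers of keratinocytes were all listed, and their summed level ran from 24220 to 34690 CPM in RPF. In total RNA this sum was 12110 to 12750 CPM in S51 vehicle and 14970 to 17510 CPM in the other groups, and its part in the results was not tested. Single markers did not all follow the sum. With bortezomib mean Trp63 in total RNA went from 342 to 181 CPM in S51 and from 401 to 195 CPM in S51A. Mean Itga6 went from 1262 to 1074 CPM and from 2144 to 1803 CPM. The means of the other keratinocyte markers were higher with bortezomib in both genotypes. Sums for fibroblasts, leukocytes, endothelium and melanocytes did not exceed 16.9 CPM in RPF or 7.32 CPM in total RNA. In bulk samples, fewer cells of a type and less RNA per cell cannot be told apart.

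Because several of these genes are described as ATF4 targets, their promoters are shown where they hold the composite element spelled TGATGNAA (N, any base). RefSeq promoters (build GRCm38.p6, 250 bases before to 50 after the start site) were at hand for 7 of the 10 genes, with none for Slc7a5, Slc1a5 and Slc38a1. Slc7a11 and Slc1a4 held the spelling on either strand, against 4.51% of the 27025 genes with a promoter in the table. In Slc7a11 it occurred on the forward strand from base -66 and on the reverse strand from base -47, counted from the start site, and in Slc1a4 on the reverse strand from base -4. Both windows lie on the minus strand and are written 5′ to 3′ along the gene, with the matches in capitals, at chr3:50443613-50443719 for Slc7a11 and at chr11:20332699-20332757 for Slc1a4.
Slc7a11: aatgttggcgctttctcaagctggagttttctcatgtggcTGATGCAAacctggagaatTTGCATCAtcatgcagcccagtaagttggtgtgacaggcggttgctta
Slc1a4: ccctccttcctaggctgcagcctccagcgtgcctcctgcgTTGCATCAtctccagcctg
The antioxidant response element spelled TGACNNNGC, searched in the same way and without overlap with the matches above, occurred in the promoters of Slc7a1, Slc7a6, Slc38a2 and Slc6a9, against 13.99% of genes. In the leaders of their mRNAs, 5 of the 10 genes had an upstream AUG (Slc7a11, Slc7a6, Slc7a1 and Slc1a5 had 1 each and Slc38a1 had 8), against 46.5% of 9442 genes tested in RPF. A match is a description of the letters in the window and not of binding.

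The 10 carriers differed widely in abundance. In RPF CPM per kilobase of counted coding sequence, the S51 vehicle means fell in the order Slc3a2 (678), Slc38a2 (609), Slc7a5 (580), Slc7a1 (279), Slc7a11 (142), Slc1a5 (137), Slc7a6 (74.3), Slc6a9 (36.6), Slc1a4 (31.7) and Slc38a1 (0.349). The ranges over the 3 libraries overlapped between Slc3a2 and Slc38a2, Slc38a2 and Slc7a5, Slc7a11 and Slc1a5, and Slc6a9 and Slc1a4, so these neighbours did not differ beyond their spread. In S51A vehicle the most abundant carrier was Slc38a2 at 700 CPM per kilobase, followed by Slc3a2 at 407, Slc7a1 at 345 and Slc7a5 at 218, and none of these 4 ranges overlapped. Slc7a5 was thus above Slc7a1 in S51 vehicle and below it in S51A vehicle. Slc38a1, a sodium-coupled carrier of glutamine and other small neutral amino acids, had 0 to 2 reads in any RPF library, below the number needed for a test, and between 0.872 and 2.27 CPM in total RNA. Its system A relative Slc38a2 was among the most abundant genes of the group.

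**Figure D1:**
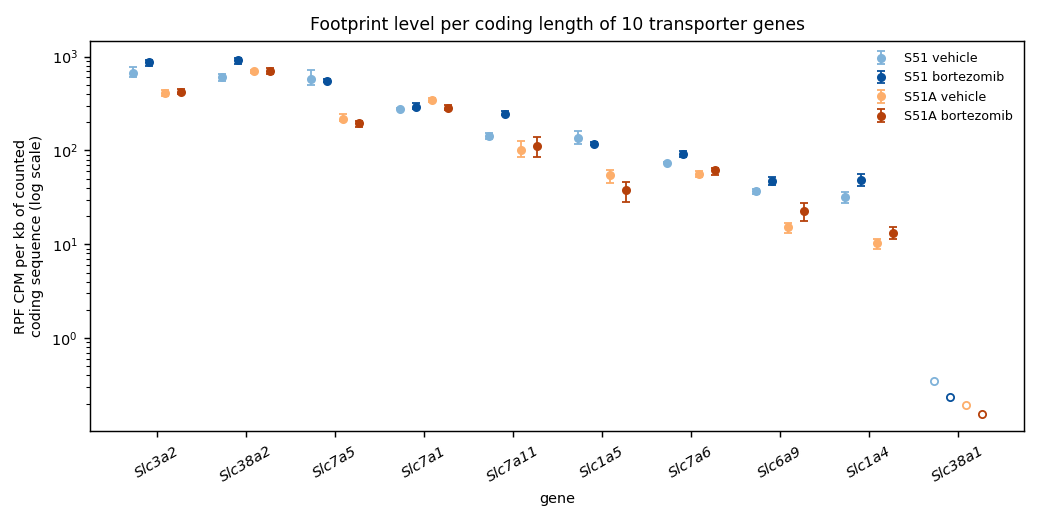
Footprint level of each transporter gene on a log axis, as RPF CPM per kilobase of counted coding sequence, with a dot for the mean of each group and bars for its lowest and highest library (open dots, a group with a library at 0 and drawn without a bar). Slc3a2, Slc38a2 and Slc7a5 stand highest in S51 vehicle, between 580 and 678, and Slc38a1 lies far below the rest at 0.349.

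Each gene was tested in RPF (9 of the 10 genes, among 9457), in total RNA (10 of 10, among 11708) and in translation efficiency (TE, RPF relative to total RNA; 9 of 10, among 9424). A difference was called at a Benjamini-Hochberg adjusted p below 0.05 in edgeR's quasi-likelihood test, taken over all genes tested, together with a fold change above 1.5. Without bortezomib, most of the transporters were already higher in S51 than in S51A cells, whereas Slc7a1 and Slc38a2 lay lower by less than 1.5-fold. In RPF, 5 of 9 were called higher and 0 lower (Slc3a2, Slc7a5, Slc1a4, Slc1a5 and Slc6a9), where 6.62% of all genes tested were called higher and 9.19% lower. In total RNA, 6 of 10 were called higher, the same 5 and Slc7a6, and 0 lower (background 6.29% higher and 11.2% lower). The median log2 fold change of the transporters was 0.73 in RPF and 0.65 in total RNA, against -0.01 and -0.003 over all genes tested. By unadjusted p below 0.05, 9 of 9 passed in RPF and 9 of 10 in total RNA, where 39.4% and 67.0% of all genes did, so that the background of small differences was high.

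Bortezomib raised a smaller number of transporters, and only S51 cells had calls. In S51 cells, 3 of 9 were called higher in RPF (Slc7a11, Slc1a4 and Slc38a2) and 0 lower, with 7.38% of all genes called higher and 11.2% lower. In total RNA, 2 of 10 were called higher (Slc7a11 and Slc6a9) and 0 lower, with 5.7% of all genes called higher and 9.59% lower. Without S51 vehicle replicate 3, 1 of 9 was called in RPF, and with library totals alone as the scaling 1 of 10 in total RNA, Slc6a9. In S51A cells edgeR called 0 of 9 in RPF (background 4.19% higher and 6.67% lower) and 0 of 10 in total RNA (4.54% and 8.57%), and DESeq2 also called 0 in each, while an unadjusted p below 0.05 was reached by 4 in RPF and 6 in total RNA, where 33% and 60.2% of all genes reached it. Tested as the difference between the responses of S51 and S51A, 1 of 9 was called in RPF, Slc38a2 (background 0.878% higher and 0.983% lower; DESeq2 called Slc7a11 in its place), and 1 of 10 in total RNA, Slc6a9 (1.34% and 0.752%), both with the larger response in S51. Which genotype has calls is therefore no test of a difference for the other genes, whose values are given below. Under bortezomib, S51 exceeded S51A for 6 of 9 transporters in RPF, the 5 of the vehicle comparison and Slc7a11, and for 6 of 10 in total RNA, Slc7a11 with the same 5, and 0 were lower in either (background 7.66% higher and 10% lower in RPF, 8.23% and 11.7% in total RNA). These comparisons share groups of libraries and are not independent of each other.

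**Figure D2:**
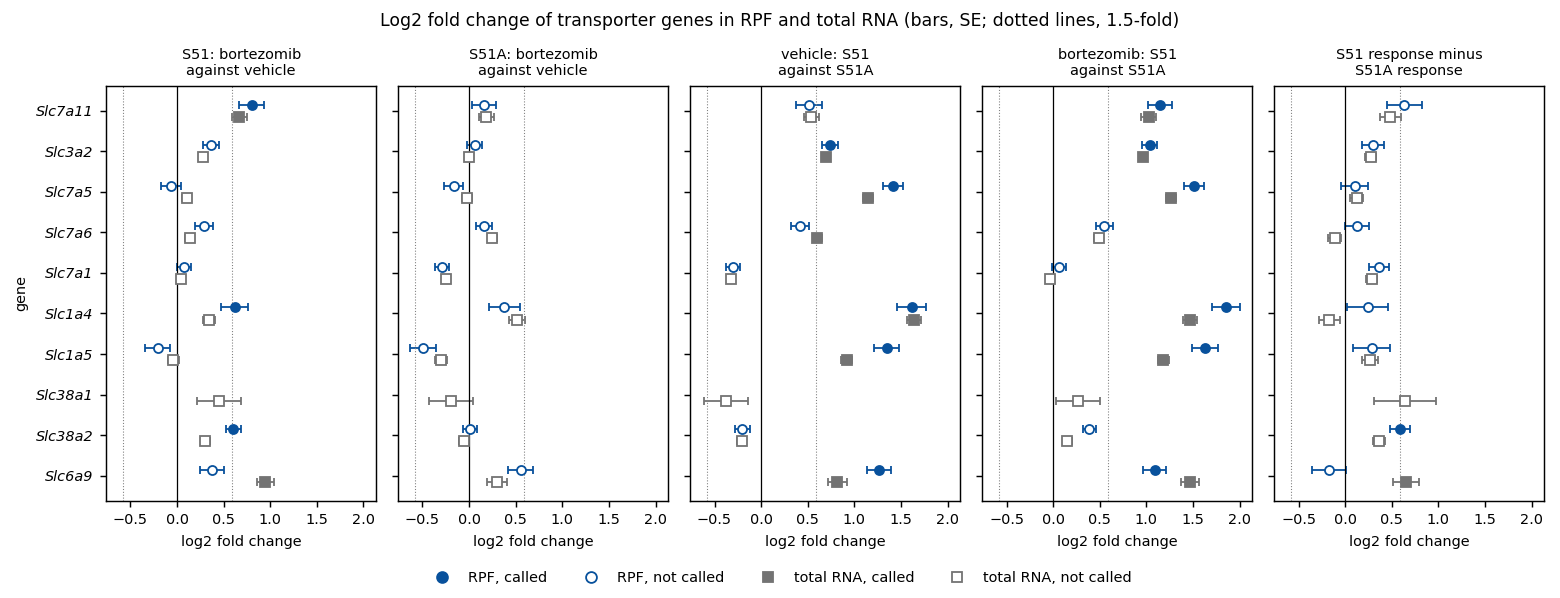
Log2 fold change of each transporter gene in RPF (circles) and total RNA (squares) for the 4 group comparisons and for the S51 response minus the S51A response, with bars for the standard error, filled symbols for called differences and dotted lines at 1.5-fold. Calls lie to the right in the columns that compare S51 with S51A, up to 1.86 for Slc1a4 RPF under bortezomib, and no symbol is filled in the S51A bortezomib column.

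Slc7a11 (chr3:50364936-50443613, GRCm38.p6, minus strand) encodes xCT, the light chain that exchanges extracellular cystine for glutamate and so supplies cysteine for glutathione. Its RPF levels were 224, 200 and 193 CPM in S51 vehicle, 381, 355, 342 and 355 CPM in S51 bortezomib, 184, 142, 129 and 125 CPM in S51A vehicle and 201, 154, 164 and 124 CPM in S51A bortezomib. Every S51 bortezomib library lay above every other library, and the S51A groups overlapped each other. With bortezomib Slc7a11 rose in S51 cells by 0.80 ± 0.14 (log2, SE) in RPF, adjusted p 0.000131, and by 0.67 ± 0.08 in total RNA, adjusted p 9.49e-08. The total RNA value was 0.52 and no longer above 1.5-fold when libraries were scaled by their totals alone, a scaling that moved the median of all genes to -0.16. In S51A cells the differences were 0.16 ± 0.13 in RPF (adjusted p 0.41) and 0.18 ± 0.08 in total RNA (adjusted p 0.057). The response was larger in S51 by 0.64 ± 0.19 in RPF, adjusted p 0.0744, and by 0.49 ± 0.11 in total RNA, adjusted p 0.00327, below 1.5-fold. The RPF response difference passed the call in DESeq2 (0.63, adjusted p 0.0421), without the filter on low counts (0.62), without S51 vehicle replicate 2 (0.61) and without S51A bortezomib replicate 1 (0.77). It also passed with the replicate number as a block (0.72, adjusted p 0.00758). Under vehicle, S51 exceeded S51A by 0.51 ± 0.14 in RPF and 0.54 ± 0.08 in total RNA, under 1.5-fold, and passed it without S51A vehicle replicate 1 in both (0.64 and 0.61) and without S51 vehicle replicate 3 in RPF (0.60).

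Slc3a2 (chr19:8706882-8723369, minus strand) encodes the CD98 heavy chain (4F2hc), which carries xCT, LAT1 and y+LAT2 to the plasma membrane. RPF levels were 1052, 1279 and 999 CPM in S51 vehicle, 1303, 1451, 1447 and 1506 CPM in S51 bortezomib, 680, 647, 715 and 627 CPM in S51A vehicle and 712, 677, 732 and 661 CPM in S51A bortezomib. All S51 libraries lay above all S51A libraries, and within S51 the bortezomib libraries lay above the vehicle libraries. S51 exceeded S51A under vehicle by 0.73 ± 0.09 in RPF (adjusted p 1.46e-06) and 0.70 ± 0.04 in total RNA (adjusted p 7e-13), and under bortezomib by 1.04 ± 0.08 and 0.97 ± 0.04. With bortezomib the difference in S51 cells was 0.36 ± 0.09 in RPF (adjusted p 0.00298) and 0.28 ± 0.04 in total RNA, both under 1.5-fold, and in S51A cells 0.06 ± 0.08 and 0.00 ± 0.04. The difference between these responses was 0.27 ± 0.06 in total RNA (adjusted p 0.00206) and 0.30 ± 0.12 in RPF (adjusted p 0.199). Without S51 vehicle replicate 2 the RPF values were 0.62 for S51 against S51A vehicle, 0.48 for bortezomib in S51 and 0.41 for the response difference (adjusted p 0.00347).

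Slc7a5 (chr8:121881146-121907686, minus strand) encodes LAT1, the light chain that takes up leucine and other large neutral amino acids in exchange for intracellular amino acids. It had 760, 1080 and 732 CPM of footprints in S51 vehicle, 857, 813, 789 and 813 CPM in S51 bortezomib, 319, 303, 359 and 308 CPM in S51A vehicle and 264, 305, 294 and 285 CPM in S51A bortezomib. The genotypes did not overlap, the treatments overlapped within S51, and S51 vehicle replicate 2 stood above the other 2 libraries of its group. S51 exceeded S51A by 1.41 ± 0.11 in RPF under vehicle (adjusted p 3.63e-09), by 1.22 without that replicate, and by 1.51 ± 0.10 under bortezomib (adjusted p 5.13e-10). In total RNA the same comparisons gave 1.14 ± 0.05 and 1.27 ± 0.05. Bortezomib gave no call in either genotype, with -0.07 ± 0.11 in S51 and -0.17 ± 0.10 in S51A in RPF, and a response difference of 0.10 ± 0.15 (adjusted p 0.788). Without S51 vehicle replicate 2 the S51 value turned to 0.13 (adjusted p 0.181) and the response difference was 0.30 (adjusted p 0.0716). In total RNA the response difference was 0.12 ± 0.07 (adjusted p 0.243).

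Slc7a6 (chr8:106168921-106198714, plus strand) encodes y+LAT2, a further light chain of Slc3a2, which exchanges cationic for neutral amino acids. RPF levels ran from 108 to 113 CPM in S51 vehicle, from 126 to 146 CPM in S51 bortezomib, from 78.0 to 89.3 CPM in S51A vehicle and from 82.5 to 97.9 CPM in S51A bortezomib. Thus the S51 libraries lay above the S51A libraries, with smaller distances than for Slc7a5. Under vehicle S51 exceeded S51A by 0.60 ± 0.05 in total RNA (adjusted p 1.34e-10), which fell to 0.56 and below 1.5-fold without S51A vehicle replicate 1. The other Slc7a6 differences stayed under 1.5-fold, the largest being 0.55 ± 0.09 in RPF between S51 and S51A under bortezomib. The response difference was 0.13 ± 0.13 in RPF (adjusted p 0.667) and -0.11 ± 0.07 in total RNA (adjusted p 0.263).

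Slc7a1 (chr5:148327410-148399904, minus strand) encodes CAT1, which takes up arginine and lysine without the heavy chain. Its footprints were at 500, 502 and 514 CPM in S51 vehicle, 495, 496, 557 and 575 CPM in S51 bortezomib, 602, 641, 649 and 602 CPM in S51A vehicle and 492, 505, 549 and 493 CPM in S51A bortezomib. S51A vehicle stood above the other 3 groups without overlap, a pattern that none of the other 8 carriers tested in RPF showed. S51 was below S51A under vehicle by -0.30 ± 0.08 in RPF (adjusted p 0.00565) and -0.32 ± 0.04 in total RNA (adjusted p 6.54e-07). In S51A cells the bortezomib difference was -0.29 ± 0.07 in RPF (adjusted p 0.0056) and -0.24 ± 0.04 in total RNA, and in S51 cells 0.07 ± 0.08 and 0.04 ± 0.04. None of these exceeded 1.5-fold, and the response difference in total RNA was 0.28 ± 0.06 (adjusted p 0.00175). In RPF the response difference was 0.36 ± 0.11 (adjusted p 0.0742). Without S51 vehicle replicate 2 the adjusted p of that RPF value was 0.0191, still under 1.5-fold.

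Slc1a4 (chr11:20302180-20332713, minus strand) encodes ASCT1, an exchanger of serine, alanine, cysteine and threonine. RPF levels were 47.8, 55.6 and 42.8 CPM in S51 vehicle, 68.4, 80.3, 63.9 and 85.7 CPM in S51 bortezomib, 14.02, 17.5, 17.4 and 13.8 CPM in S51A vehicle and 18.04, 22.4, 17.7 and 23.6 CPM in S51A bortezomib. None of the 4 groups overlapped another. Slc1a4 had the largest genotype difference of the 10 genes in both kinds of library, 1.62 ± 0.15 in RPF (adjusted p 1e-07) and 1.64 ± 0.08 in total RNA under vehicle, and 1.86 ± 0.15 in RPF under bortezomib (adjusted p 5.87e-09). In total RNA under bortezomib the difference was 1.469 ± 0.075, next to 1.470 ± 0.095 for Slc6a9. With bortezomib its footprints rose in S51 cells by 0.62 ± 0.14 (adjusted p 0.00237), which was 0.50 without S51 vehicle replicate 3 and 0.54 without S51 bortezomib replicate 4, under 1.5-fold in both. With the replicate number as a block this rise was 0.58, likewise under 1.5-fold. In S51A cells the differences were 0.38 ± 0.16 in RPF (adjusted p 0.11) and 0.51 ± 0.09 in total RNA (adjusted p 1.94e-05), under 1.5-fold, and the response difference was 0.24 ± 0.22 in RPF and -0.17 ± 0.11 in total RNA.

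Slc1a5 (chr7:16781346-16798274, plus strand) encodes ASCT2, a sodium-dependent exchanger that takes up glutamine. It was measured at 214, 262 and 187 CPM in S51 vehicle, 191, 196, 182 and 193 CPM in S51 bortezomib, 98.6, 83.2, 93.8 and 73.2 CPM in S51A vehicle and 69.3, 58.0, 74.4 and 44.9 CPM in S51A bortezomib. The genotypes stood apart and the treatments overlapped within each genotype. S51 exceeded S51A by 1.35 ± 0.14 in RPF (adjusted p 2.31e-07) and 0.92 ± 0.06 in total RNA under vehicle, and by 1.63 ± 0.14 (adjusted p 1.32e-08) and 1.18 ± 0.06 under bortezomib. Without S51 vehicle replicate 2 the RPF difference under vehicle was 1.22. Bortezomib values were -0.21 ± 0.14 in S51 RPF (adjusted p 0.262) and -0.49 ± 0.14 in S51A RPF (adjusted p 0.0142), neither above 1.5-fold. The S51 value was -0.07 without S51 vehicle replicate 2, and the response difference went from 0.28 to 0.41 (adjusted p 0.14).

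Slc38a2 (chr15:96687392-96699728, minus strand) encodes SNAT2, a sodium-coupled carrier of alanine, glutamine and other small neutral amino acids that is known for its adaptation to amino acid supply. RPF levels were 961, 801 and 894 CPM in S51 vehicle, 1389, 1225, 1392 and 1364 CPM in S51 bortezomib, 1030, 1006, 1051 and 985 CPM in S51A vehicle and 1109, 998, 1053 and 942 CPM in S51A bortezomib. The S51 vehicle libraries were the lowest and the S51 bortezomib libraries the highest, except that S51A bortezomib replicate 4 fell below the highest S51 vehicle library. With bortezomib Slc38a2 rose in S51 cells by 0.60 ± 0.08 in RPF (adjusted p 6.91e-06), and the value in S51A cells was 0.01 ± 0.07. The responses differed by 0.59 ± 0.11 (adjusted p 0.00351), with the fold change only just above 1.5. Both values lay so near this limit that single libraries decided the call. The rise in S51 was 0.54 without S51 vehicle replicate 2, 0.58 without S51 vehicle replicate 3 and 0.58 without S51 bortezomib replicate 3, and the response difference fell under 1.5-fold without any 1 of 9 libraries, with values from 0.52 to 0.58 and adjusted p of 0.0127 or less. It was 0.57 to 0.58, likewise under 1.5-fold, with RLE factors, in DESeq2, without the filter on low counts and with at least 10 counts in every library. In total RNA the S51 rise was 0.30 ± 0.05 and the response difference 0.36 ± 0.07 (adjusted p 0.000357), both under 1.5-fold. Under vehicle S51 lay below S51A, at -0.20 ± 0.08 in RPF (adjusted p 0.0636, or -0.13 without S51 vehicle replicate 2) and -0.21 ± 0.05 in total RNA (adjusted p 0.000415), a direction shared with Slc7a1 and, in total RNA, with Slc38a1 (-0.38 ± 0.23, adjusted p 0.163). The response difference of Slc38a1 in total RNA was 0.64 ± 0.33 (adjusted p 0.173).

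Slc6a9 (chr4:117849350-117869304, plus strand) encodes GlyT1, a sodium- and chloride-dependent carrier of glycine. RPF levels were 73.3, 69.6 and 65.5 CPM in S51 vehicle, 81.5, 89.0, 90.0 and 98.6 CPM in S51 bortezomib, 31.8, 29.8, 30.3 and 25.0 CPM in S51A vehicle and 33.8, 52.6, 41.1 and 43.3 CPM in S51A bortezomib. In total RNA it had 18.2, 18.6, 17.8 and 17.8 CPM in S51 vehicle, 33.3, 39.2, 31.2 and 35.9 CPM in S51 bortezomib, 9.49, 11.6, 10.1 and 9.86 CPM in S51A vehicle and 10.8, 16.2, 11.03 and 12.2 CPM in S51A bortezomib. The 4 groups did not overlap in RPF, and in total RNA S51 bortezomib lay far above the rest. S51 exceeded S51A under vehicle by 1.26 ± 0.13 in RPF (adjusted p 3.56e-07) and 0.82 ± 0.10 in total RNA. With bortezomib its mRNA rose in S51 cells by 0.95 ± 0.09 (adjusted p 2.29e-09) against 0.30 ± 0.11 in S51A cells, and these responses differed by 0.65 ± 0.14 (adjusted p 0.0017), or by 0.58 and under 1.5-fold without S51A bortezomib replicate 1. Its footprints differed by 0.38 ± 0.13 in S51 cells (adjusted p 0.0309) and by 0.55 ± 0.13 in S51A cells (adjusted p 0.00439), under 1.5-fold in each. The S51A value was 0.59 without S51A vehicle replicate 1 and 0.66 without S51A bortezomib replicate 1, and passed the call in both cases. In footprints the response difference was -0.18 ± 0.18 (adjusted p 0.688), opposite in sign to that of the mRNA. The gene overlaps Ccdc24, which had no footprint counts in any library and at most 0.875 CPM in total RNA.

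**Figure D3:**
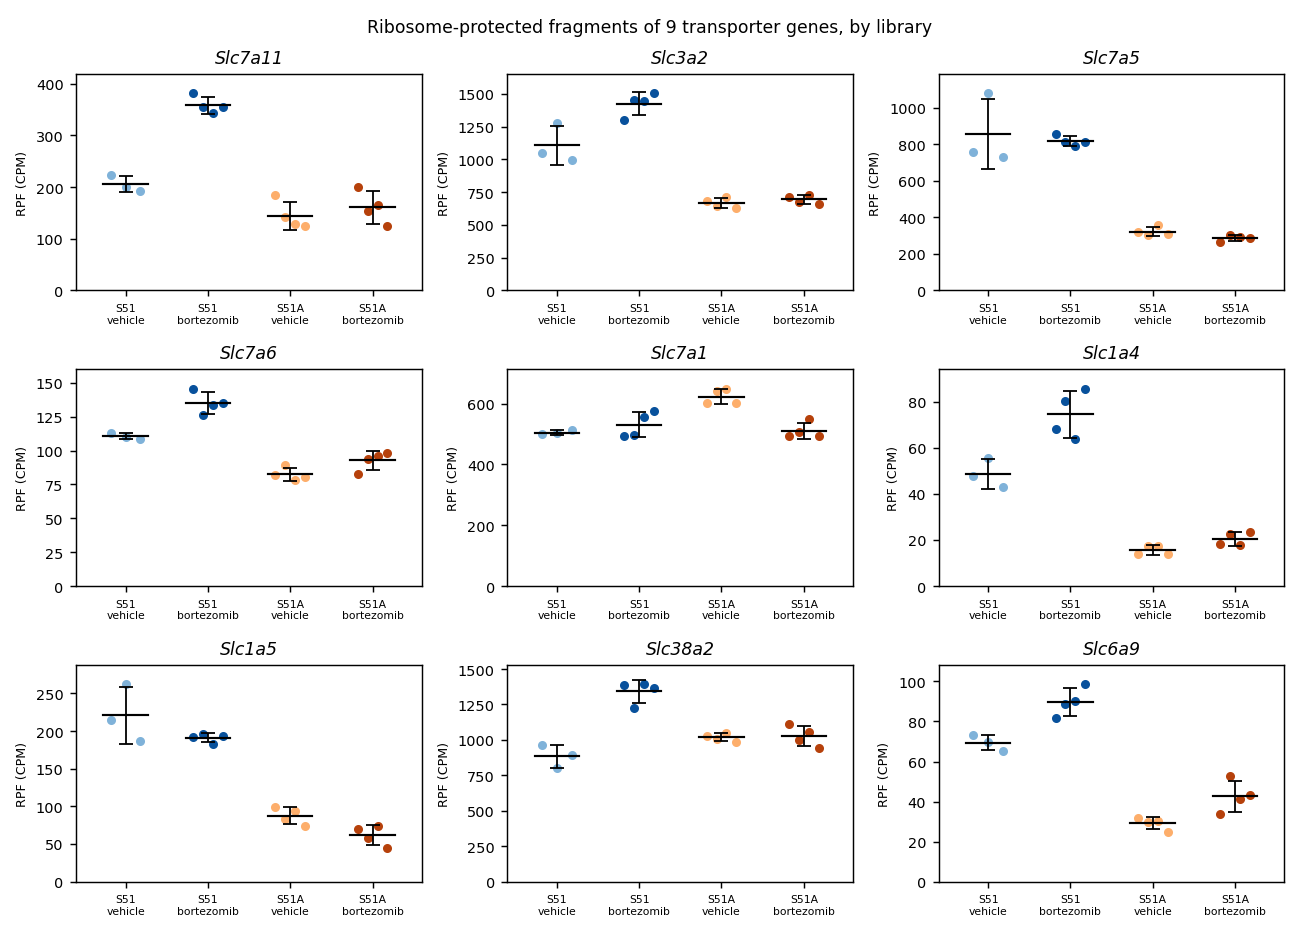
RPF level in CPM of the 9 tested transporter genes, with 1 dot per library, a line at the group mean and bars for 1 SD, in 3 S51 vehicle libraries and 4 of every other group. S51 libraries sit above S51A libraries for Slc3a2, Slc7a5, Slc7a6, Slc1a4, Slc1a5 and Slc6a9, and Slc7a1 stands apart with its highest values, 602 to 649 CPM, in S51A vehicle.

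TE was then compared, since a change in footprints may follow the mRNA or depart from it. EdgeR called 0 of the 9 transporters in any of the 5 TE comparisons. The background of calls, higher and lower, was 1.04% and 4.24% for bortezomib in S51, 0.0849% and 0.902% for bortezomib in S51A, 0.0318% and 0.0531% for S51 against S51A under vehicle, 0.552% and 2.53% under bortezomib, and 0.212% and 1.08% for the response difference. At these rates 0 calls among 9 genes is near the background. By unadjusted p below 0.05, 2, 0, 4, 5 and 1 of the 9 passed in these comparisons, against 23.1%, 6.54%, 14.7%, 18.4% and 12% of all genes, and DESeq2 called 0, 0, 0, 0 and 1. With library totals alone as the scaling, the share of all TE calls that were higher moved from 19.7% to 61.5% for bortezomib in S51, and 0 transporters were called under that scaling too. The median TE difference of the transporters lay between -0.05 and 0.12 on the log2 scale. Single genes went both ways around it. Under vehicle, the TE of S51 relative to S51A was near 0 for Slc3a2 (0.04 ± 0.09), Slc1a4 (-0.03 ± 0.17) and Slc7a11 (-0.02 ± 0.16). It was 0.45 ± 0.17 for Slc6a9 (adjusted p 0.251), 0.44 ± 0.14 for Slc1a5 (adjusted p 0.202) and 0.27 ± 0.12 for Slc7a5 (adjusted p 0.314). Slc7a6 went the other way, at -0.19 ± 0.09 (adjusted p 0.337). Slc1a5 was at 0.28 without S51 vehicle replicate 2 and passed the call without S51 vehicle replicate 3 (0.63), and Slc7a5 was at 0.07 without S51 vehicle replicate 2. Slc3a2 turned to -0.07 without that library. Under bortezomib the genotype difference in TE was 0.45 ± 0.15 for Slc1a5 (adjusted p 0.0698), 0.38 ± 0.16 for Slc1a4, 0.25 ± 0.12 for Slc7a5, 0.24 ± 0.09 for Slc38a2 and -0.37 ± 0.16 for Slc6a9 (adjusted p 0.205). With bortezomib in S51 cells, leaving out S51 vehicle replicate 2 moved TE from 0.09 to 0.20 for Slc3a2, from -0.17 to 0.04 for Slc7a5 and from -0.16 to -0.0002 for Slc1a5, and their TE response differences from 0.03 to 0.14, from -0.02 to 0.18 and from 0.01 to 0.17.

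With bortezomib in S51 cells, only Slc38a2 and Slc6a9 had a TE difference at an adjusted p below 0.05, in opposite directions. Slc1a4 was at 0.28 ± 0.14 (adjusted p 0.248), close to Slc38a2. Without S51 vehicle replicate 2 it was at 0.35 (adjusted p 0.183), above Slc38a2. For Slc38a2 the ratio of RPF CPM to total RNA CPM was 1.59, 1.45 and 1.58 in S51 vehicle, 1.79, 1.88, 1.92 and 2.01 in S51 bortezomib, and between 1.49 and 1.65 in the 8 S51A lysates. The S51 bortezomib lysates lay above all others, and TE differed by 0.30 ± 0.09 (adjusted p 0.0313), under 1.5-fold, or by 0.25 (adjusted p 0.0642) without S51 vehicle replicate 2. For Slc6a9 the ratio was 4.04, 3.74 and 3.69 in S51 vehicle, 2.45, 2.27, 2.88 and 2.74 in S51 bortezomib, 3.35, 2.56, 3.005 and 2.53 in S51A vehicle and 3.14, 3.25, 3.73 and 3.55 in S51A bortezomib. The S51 groups did not overlap, and the bortezomib difference was -0.57 ± 0.16 in S51 (adjusted p 0.0152), just under 1.5-fold, and 0.26 ± 0.18 in S51A (adjusted p 0.946). Without S51 vehicle replicate 3, S51 bortezomib replicate 3 or S51 bortezomib replicate 4 it was -0.63, -0.61 and -0.60 and called. The 2 responses differed by -0.82 ± 0.24 (adjusted p 0.0661), which passed the threshold in DESeq2 (-0.84), with the lysate as a block (-0.83), with at least 10 counts in every library (-0.84), and without S51 vehicle replicate 3 (-0.88), S51A bortezomib replicate 1 (-0.87) or S51A bortezomib replicate 2 (-0.88). The depth of this gene in RPF was 68 to 263 reads per library.

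**Figure D4:**
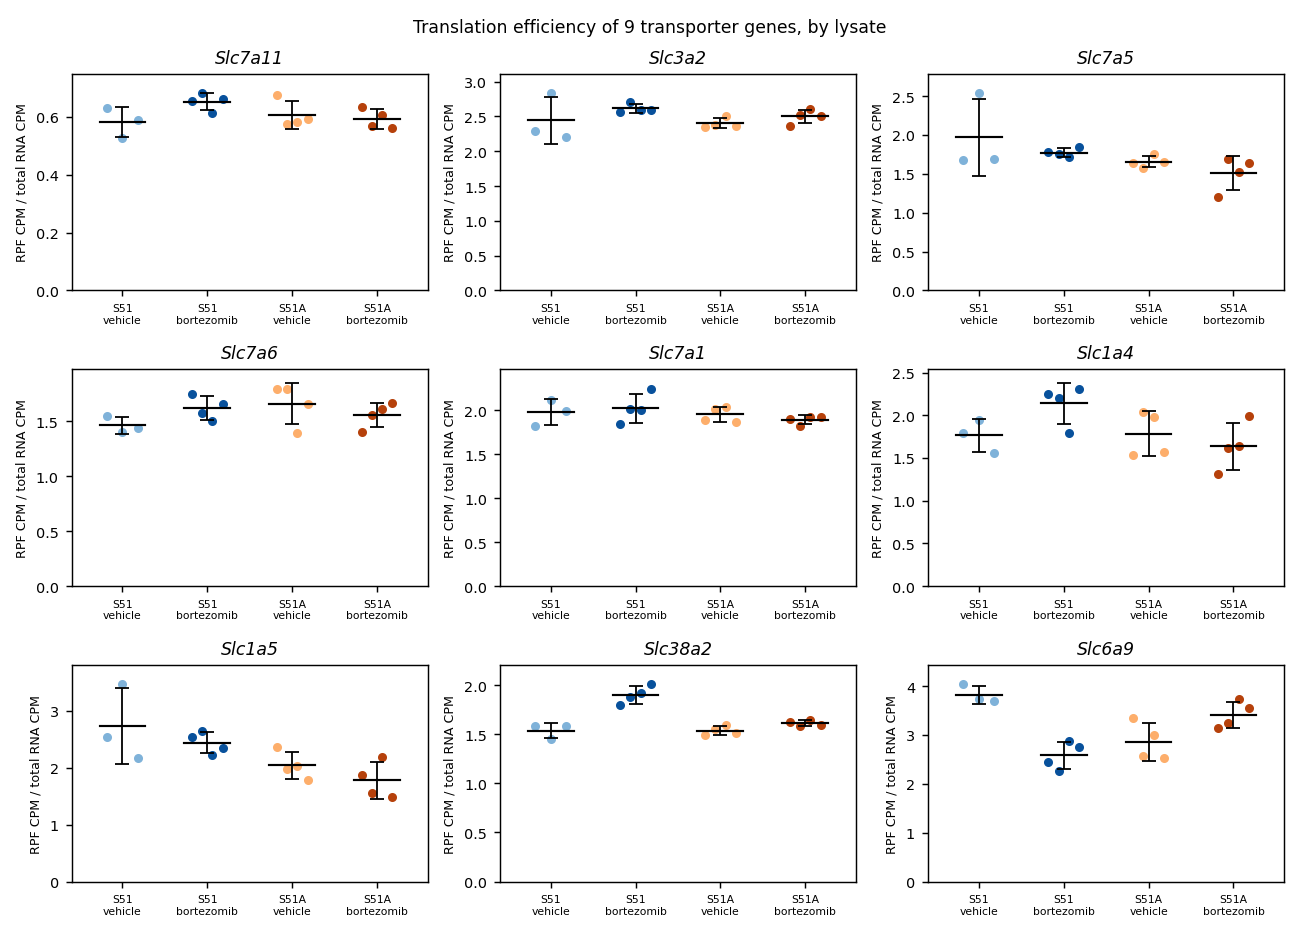
TE of the 9 transporter genes as the ratio of RPF CPM to total RNA CPM of the same lysate, with 1 dot per lysate, a line at the group mean and bars for 1 SD. Slc38a2 is highest in the 4 S51 bortezomib lysates, 1.79 to 2.01, and Slc6a9 is lower there, 2.27 to 2.88, than in S51 vehicle, 3.69 to 4.04.

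The heavy chain was set against its light chains, because the light chains share it. The ratio of Slc3a2 to the sum of Slc7a5, Slc7a6 and Slc7a11, each as RPF CPM per counted coding length, was 0.8634, 0.8289 and 0.8697 in S51 vehicle and 0.8455, 1.007, 1.027 and 1.039 in S51 bortezomib. In S51A cells it was 1.043, 1.087, 1.135 and 1.099 with vehicle and 1.166, 1.0996, 1.185 and 1.173 with bortezomib. Heavy chain footprints thus ranged from just below to just above those of the 3 light chains together, and the ratio was lower in S51 than in S51A in both treatments without overlap. By two-sided exact permutation tests adjusted over 4 comparisons, the ratio of S51 vehicle to S51A vehicle was 0.783 (exact p 0.0571, the smallest that 3 against 4 libraries allow; adjusted p 0.0762), and that of S51 to S51A under bortezomib 0.845 (exact p 0.0286, the smallest for 4 against 4; adjusted p 0.0762). Bortezomib against vehicle gave 1.14 in S51 (exact p 0.171, adjusted p 0.171) and 1.06 in S51A (exact p 0.0571, adjusted p 0.0762). None passed the threshold of 0.05. With so few libraries no adjusted p over these 4 comparisons could have fallen below it, so the tests cannot decide whether the ratio differs.

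With bortezomib in S51 cells, the make-up of the light chains shifted towards Slc7a11. In S51 vehicle, Slc7a5 made up 72.4% ± 4.5 of the light-chain footprints per length, Slc7a11 18.2% ± 3.2 and Slc7a6 9.49% ± 1.41 (SD, n = 3). In S51 bortezomib Slc7a5 stood at 62.1% ± 0.36 and Slc7a11 at 27.7% ± 0.22 (SD, n = 4), with no overlap with the vehicle libraries, which ran from 69.0% to 77.5% and from 14.7% to 20.8%. S51A cells had 58.4% ± 4.0 of Slc7a5 and 26.7% ± 3.8 of Slc7a11 with vehicle, and 52.9% ± 3.6 and 30.1% ± 5.2 with bortezomib (SD, n = 4). These shares sum to a whole, so that a rise of 1 member lowers the shares of the others, and a fall raises them. Between vehicle groups, the Slc7a11 share was higher in S51A although its mean RPF level was lower, 145 CPM against 206 in S51. Slc7a5 averaged 322 CPM in S51A vehicle and 857 in S51 vehicle, where replicate 2 was highest at 1080.

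**Figure D5:**
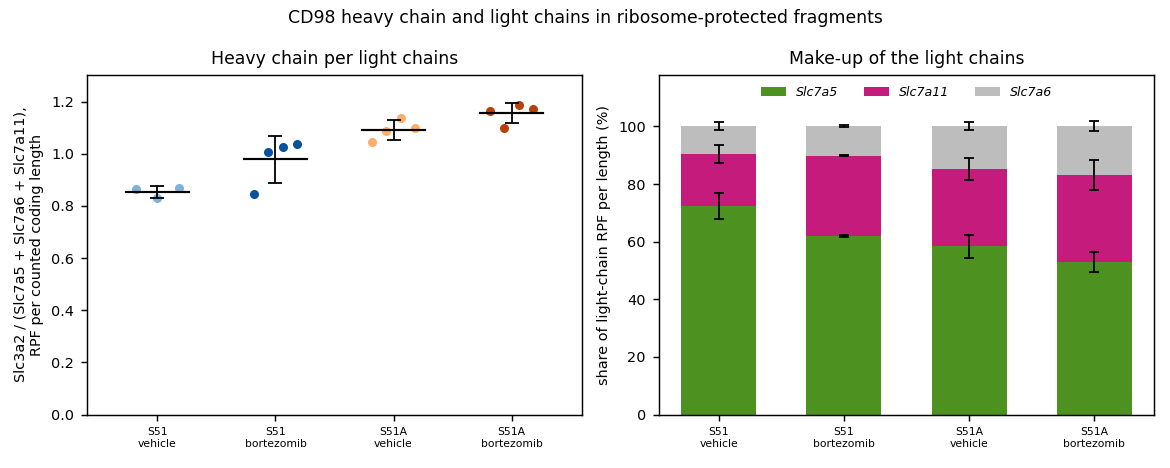
Left, the ratio of Slc3a2 to the summed light chains Slc7a5, Slc7a6 and Slc7a11 in RPF per counted coding length, with 1 dot per library, a line at the group mean and bars for 1 SD. Right, the mean share of each light chain in percent with bars for 1 SD. The ratio is lowest in S51 vehicle (0.8289 to 0.8697), and the share of Slc7a5 is largest there (72.4%).

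The transporters were also set beside the other genes of the pathway, in lists chosen with earlier results of these data known. With bortezomib, the background of RPF calls was 7.38% higher and 11.2% lower in S51, and 4.19% and 6.67% in S51A. In total RNA it was 5.7% and 9.59% in S51, and 4.54% and 8.57% in S51A. For S51 against S51A in RPF it was 6.62% and 9.19% under vehicle, and 7.66% and 10% under bortezomib. Of 7 bZIP regulators of the ISR, 6 were tested in RPF and 4 rose with bortezomib in S51 cells, with log2 fold changes of 2.94 for Ddit3, 1.72 for Atf5, 1.46 for Atf4 and 0.83 for Nfe2l2, against 0 in S51A. In total RNA 2 of 7 rose in S51, Ddit3 (1.64) and Atf3 (1.36), and 0 in S51A. Where a list had 5 or fewer calls, they are named here after their values were seen. Of 17 other ATF4 targets, mostly enzymes of amino acid synthesis and stress effectors, 16 were tested, and 13 were higher in S51 than in S51A vehicle in RPF, 15 under bortezomib, and 0 lower. With bortezomib 5 of these 16 rose in S51 in RPF and 5 in total RNA, such as Ppp1r15a (RPF 2.77), Ddit4 (total RNA 2.56), Trib3 (total RNA 1.195) and Chac1 (total RNA 1.02), with Sesn2 as the fifth in both. In S51A Sesn2 and Ddit4 rose and Chac1 fell in RPF, and in total RNA Sesn2, Ddit4 and Ppp1r15a rose and Chac1 fell. Like the transporters, most of these genes carried a genotype difference under vehicle and fewer carried a bortezomib call. In TE, 4 of the 6 bZIP regulators, 1 of the 16 other targets and 0 of the 9 transporters were called higher with bortezomib in S51. The background of such calls was 1.04%.

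Transporters outside the group were measured in the same way. Of 43 further amino acid transporter genes, most were too low for a test, and 6 were tested in RPF and 12 in total RNA. In RPF, bortezomib raised Slc6a6, the taurine transporter (0.59), and lowered Slc36a1, a lysosomal proton-coupled carrier (-0.84), in S51, with 0 calls in S51A. The S51A values were 0.38 for Slc6a6 (adjusted p 0.000325), under 1.5-fold, and -0.37 for Slc36a1 (adjusted p 0.308). Neither response difference was called, at 0.21 (adjusted p 0.314) and -0.47 (adjusted p 0.605). Under vehicle 0 of the 6 were higher and 1, Slc16a10 (-0.71), lower in S51 than in S51A, where 5 of 9 of the ATF4-linked carriers were higher. With 6.62% of all genes called higher and 9.19% lower, the counts of these 6 genes are near the background. In total RNA 0 of the 12 were called with bortezomib in either genotype, and under vehicle Slc7a8 and Slc1a1 (0.99) were called higher and Slc43a2 (-0.98) lower in S51. The background under vehicle was 6.29% higher and 11.2% lower. Slc7a8 stood at 0.403 to 0.879 CPM in S51 vehicle and at 0 to 0.0876 CPM in S51A vehicle, too near 0 for a fold change.

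Slc7a11 supplies cysteine, and the list of cysteine and glutathione genes responded in both genotypes. In RPF 6 of 11 tested rose with bortezomib in S51, and 5 rose and 1 fell in S51A. Hmox1 differed by 2.27 in S51 and 1.52 in S51A, Gclm by 2.04 and 1.91, and Gclc, the catalytic subunit of the rate-limiting enzyme of glutathione synthesis, by 1.07 and 1.29. Chac1, which degrades glutathione, rose in S51 (0.69) and fell in S51A (-0.90). Slc7a11 itself had 0.80 in S51 and 0.16 in S51A. In total RNA 6 of 12 rose in S51, and 6 rose and 1 fell in S51A. Among genes of amino acid sensing by mTORC1, 1 of 12, Sesn2, rose in RPF in each genotype, and in total RNA 1 of 13 rose and 1 fell in S51 and 1 rose in S51A. These mTORC1 counts are near the background given above for bortezomib. The sensor gene Sesn2 rose by 2.04 in S51 and 1.62 in S51A in total RNA, and Castor2 differed by -0.88 and -0.46. Among 7 genes of surface partners and turnover of transporters, Arrdc3, an arrestin-domain adaptor, fell by 2.06 in S51 and by 1.31 in S51A in RPF, the only call of that list in S51, whereas in S51A Txnip (-0.61) was called as well.

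Across the 16 total RNA libraries, the levels of most carriers moved together with Slc3a2. Pearson's r of log2 CPM with Slc3a2 was 0.98 for Slc7a5, 0.96 for Slc1a4, 0.94 for Slc1a5, 0.92 for Slc7a6, 0.92 for Slc7a11 and 0.91 for Slc6a9, but 0.10 for Slc38a2, -0.09 for Slc38a1 and -0.60 for Slc7a1 (n = 16 libraries, which fall into 4 groups and share these group differences). The share of all genes that reach such values was not determined, so they are not particular to the carriers. Over all genes tested, the patterns most like that of Slc3a2 were those of Actl6a (0.99), Gars (0.99), a glycyl-tRNA synthetase gene, and Asns (0.99), the asparagine synthetase gene. For Slc7a5 they were Rcc2 (0.996), Xpot (0.994) and Zc3h18 (0.991), and for Slc7a11 Khdrbs1 (0.97), Ccdc88c (0.97) and Pcnt (0.96).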

How the data were processed

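RPF and total RNA of S51 and S51A SCC cells were analysed from the whole-number read counts per gene that the authors deposited, in 1 table for each kind of library. Their methods name FastX for trimming, bowtie2 for alignment to mm10, and plastid for counting within coding sequences without the first 15 and the last 5 codons. Column names add that rRNA and repeats were removed, duplicates marked and unique reads kept, and the submitters' processing notes also name featureCounts and DESeq2. Which tool counted total RNA was not settled by these sources. Unique mapping and duplicate marking can lower abundant or duplicated genes. The methods state 4 h of treatment, the labels 4.5 h. The titles of S51 bortezomib and S51A vehicle are exchanged according to a note to the series, and columns were assigned accordingly.

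Genes were filtered with filterByExpr (10 counts, total of 15) and fitted in edgeR 4.0.16 (R 4.3.3, limma 3.58.1) over all groups, after TMM scaling, by the quasi-likelihood test. TE was an interaction term (library kind by group) in a single model of the 31 libraries. Coding and transcript lengths came from RefSeq (GRCm38.p6), using the transcript with the longest coding sequence, shortened by 60 bases for RPF. The ratio of heavy to light chains was tested by exact permutation (scipy 1.17.1). Replicate pairs were no repeated libraries (chi-square per gene at least 1.64 over 21 RPF pairs and at least 2.69 over 24 total RNA pairs, where sampling noise gives about 1). The scripts were tested on simulated data. Intervals of levels cover these libraries only. Alternatives were RLE or no scaling factors, DESeq2 1.42.0, other filters and fold limits, a replicate or lysate block, only the groups compared, and each library left out.

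Members and lists were chosen with earlier results of these data known. The genes named are the 10 members, Eif2s1, Atf4 and Hspa1b as checks, up to 4 genes of each list with the most extreme called changes with bortezomib in S51, and the 3 genes most like Slc7a11, Slc3a2 and Slc7a5. In the list paragraphs, values of these genes are log2 fold changes. Ccdc24 was named after its values were seen, as the gene that overlaps Slc6a9. Trp63 and Itga6 were likewise named after their values were seen, as keratinocyte markers that did not follow the sum. Promoter entries for 3 members were not used here.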

Additional observations from a re-analysis of the deposited data

Results flagged for a closer look

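In 4 of 97 groups of 4 libraries or lysates, 1 value stood far from the other 3, about as many as chance gives at 1 in 20 groups. Slc38a1 in total RNA was 1.058 CPM in S51A bortezomib replicate 4, against 1.389 to 1.42 CPM in the others. Slc38a2 footprints were 1225 CPM in S51 bortezomib replicate 2, against 1364 to 1392 CPM. The TE of Slc3a2 was 2.507 in S51A vehicle replicate 3, against 2.354 to 2.371. The ratio of Slc3a2 to its light chains was 0.8455 in S51 bortezomib replicate 1, against 1.007 to 1.039, and it alone of that group lay within the range of S51 vehicle.

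For 7 values the response to bortezomib differed between S51 and S51A cells by the interaction test of edgeR at an adjusted p below 0.05, with the larger value in S51 each time. In RPF this was Slc38a2 (0.5895, log2). In total RNA the differences were 0.6528 for Slc6a9, 0.4859 for Slc7a11, 0.3607 for Slc38a2, 0.2824 for Slc7a1, 0.2721 for Slc3a2 and 0.2641 for Slc1a5. By unadjusted p below 0.05 in this test, 6 of 10 transporters passed in total RNA, where 34% of all genes did. In RPF 4 of 9 passed, where 16.1% of all genes did. For Slc7a1 and Slc1a5 the difference came with values below 0 in S51A (-0.24 and -0.30) and near 0 in S51 (0.04 and -0.04), whereas Slc7a11, Slc6a9 and Slc38a2 rose or were higher in S51.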

How the results depend on the processing

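Of the counts of called transporters under alternatives, 332 stayed within 1.5 times the value given above and 40 did not, and the heavy to light chain ratio kept its direction under all 38 of its alternatives. Of 3472 alternatives to single values, 3319 kept their direction and side of the threshold, 36 lost and 55 gained a call, and 62, which concerned 21 uncalled values of at most 0.17 (log2), changed sign without a call. A fold limit of 2 left 0 calls for bortezomib in S51 in RPF and in total RNA, 0 for the response in both, and 2 in total RNA for S51 against S51A vehicle. An adjusted p alone gave, in RPF, 6 for bortezomib in S51, 3 in S51A and 8 for S51 against S51A vehicle, in total RNA 6, 5 and, for the response, 6, and in TE 2 for bortezomib in S51. By unadjusted p below 0.05 in the same test, 41.2%, 33% and 39.4% of all genes passed in these RPF comparisons. In total RNA 63.5%, 60.2% and 34% did, and in TE 23.1%. Without a fold limit the background is thus high. The RPF response count was 0 with RLE factors and with at least 10 counts in every library. That filter gave 1 in TE for bortezomib in S51 and 1 for the TE response, and DESeq2 gave 1 for the TE response. Library totals alone gave 1 in total RNA for bortezomib in S51, moved the median of all genes by -0.16 in S51 and -0.13 in S51A in total RNA and by 0.15 in TE in S51, and moved the share of calls that were higher from 37.3% to 19.4% and from 34.7% to 20.7% in total RNA, from 64.1% to 51.2% for its response, and in TE from 17.9% to 47.2% for S51 against S51A under bortezomib and from 16.4% to 37.8% for the response.

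With 1 library left out, counts ran from 1 to 3 in RPF for bortezomib in S51, from 0 to 1 in S51A, from 0 to 2 for the RPF response, from 0 to 1 for the total RNA response, and from 0 to 1 in TE for bortezomib in S51, for S51 against S51A vehicle and for the response. Replicate numbers were not taken to pair the samples, since 3 of 21 same-number pairs in RPF and 8 of 24 in total RNA correlated above 0.1, where every pair had to. Of different-number pairs, 7 of 63 in RPF and 0 of 72 in total RNA did. A replicate effect is therefore not excluded. As a hint from the data, the median correlation was 0.03 in RPF and 0.09 in total RNA for the same number and -0.02 and -0.03 for different numbers, and 11 of 15 and 15 of 16 libraries correlated best with their own number. With the replicate block the RPF count was 2 for bortezomib in S51 (Slc1a4 at 0.58 was no longer above 1.5-fold) and 2 for the response, with Slc7a11 at 0.72. With the replicate block by lysate the TE response count was 1 (Slc6a9). The cause of these changes was not tested. Depth left Slc38a1 without a test in RPF (0 to 2 reads per library), and the fewest RPF reads among the tested genes were those of Slc1a4 (30 to 172) and Slc6a9 (68 to 263).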
